A study of Rattus norvegicus with 19 samples.

Results

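The genes described here are 50 cell cycle and replication genes, 17 that act at the start of S phase and in DNA synthesis and 33 that act in mitosis and the division of the cell. They were listed by symbol for these roles, and every listed gene found in the count files was used. That left 47 of the 17455 genes in the files, 16 of S phase and 31 of mitosis, and all 47 were among the 12388 genes that passed the filter on low counts and were tested. E2f8, Cenpe and Anln were not analysed here.

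Left ventricles of Sprague-Dawley rats, all labelled as Wildtype and given as 24 weeks old when housed ahead of the experiments, were sequenced as 19 libraries in 7 groups, to follow a model of heart failure with preserved ejection fraction (HFpEF) and its treatment. For 5 weeks the HFpEF group had drunk water with L-NAME (0.5 g/L), which blocks nitric oxide synthase, and eaten a high-fat diet (60% of kilocalories from lard), and control 5w rats of the same week had received normal chow and no L-NAME. Over the next 4 weeks, rats with established disease were gavaged daily with phosphate-buffered saline (untreated), with the SGLT2 inhibitor empagliflozin at 0.35 g/kg (EMPA), with the antifibrotic drug pirfenidone at 0.3 g/kg (PFD) or with both drugs at these doses (EMPA + PFD), and control 9w rats were healthy controls of week 9. The untreated, EMPA, PFD and EMPA + PFD groups are recorded here with the same L-NAME dose and high-fat diet as HFpEF. For its model the study speaks of an induction of 9 weeks. EMPA and PFD had 2 libraries each and the other groups 3, numbered in the labels as biological replicates, and each sample is labelled male. The study states that hearts of male rats were sequenced, from groups of 16 rats with both sexes in equal number.

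A cell enters S phase when cyclin D and cyclin E kinases inactivate the retinoblastoma proteins and free the E2F factors, which switch on the genes for origin licensing, nucleotide supply and DNA synthesis. The genes of mitosis are switched on later, through B-MYB, FOXM1 and the MuvB complex. Most cardiomyocytes of an adult heart have left the cycle, while fibroblasts, endothelial cells and immune cells of the ventricle can still divide.

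Levels are given as CPM, counts relative to the TMM-scaled library total, in the order of the replicate numbers of a group, and each value is the level of that gene in that library and is not set against the level of another gene. The total count per library ran from 11628931 to 13017754 (median 12616559) in control 5w, from 9386791 to 12205327 (median 10857636) in HFpEF, from 7803050 to 9409670 (median 8141045) in control 9w, from 9640990 to 10142209 (median 9951011) in untreated and from 9360259 to 10693001 (median 10318343) in EMPA + PFD. The EMPA libraries held 7430539 and 8061054 counts and the PFD libraries 9879949 and 10366167. The lowest of the 47 genes averaged 13.2 counts per library, so levels of about 1 CPM rest on few counts.

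Several libraries went against their labels or stood apart from their group. The Y-linked gene Eif2s3y had 0 counts in 7 libraries labelled male (HFpEF replicates 1 and 3 and every untreated and PFD library) and between 613 and 1321 counts in the other 12. RT1-CE16, a class I gene of the rat major histocompatibility complex that differs between haplotypes, had counts of 1, 0 and 0 in control 5w, 3, 1 and 3 in HFpEF and 0 and 0 in EMPA, but 922, 825 and 913 in control 9w, 583, 684 and 616 in untreated, 463 and 545 in PFD and 426, 308 and 720 in EMPA + PFD. Whether a library holds Eif2s3y cannot be told apart from its group when untreated is compared with control 9w, with EMPA or with EMPA + PFD, and neither can RT1-CE16 when week 5 groups or EMPA are compared with the other groups of week 9. Myl4, an atrial myosin light chain, stood at 305 and 1381 CPM in control 9w replicates 1 and 3 and at 1597 CPM in untreated replicate 2, libraries labelled as heart like all others. For the mitosis genes, control 5w split into replicate 1 and the higher replicates 2 and 3, and PFD replicate 1 was higher than replicate 2. Over all tested genes, the counts of control 5w replicates 2 and 3 differed less from each other than from those of replicate 1. Which of the control 5w libraries is typical of the group was not tested.

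Summed over the 31 mitosis genes, the level was 189, 503 and 481 CPM in control 5w and 251, 136 and 214 in HFpEF. At week 9 the sum was 178, 198 and 223 in control 9w, 88.8, 164 and 119 in untreated, 133 and 146 in EMPA, 393 and 133 in PFD and 74.0, 88.8 and 107 in EMPA + PFD. Control 5w replicates 2 and 3 and PFD replicate 1 were higher than the other 16 libraries, control 5w replicate 1 lay within the range of HFpEF, and the EMPA + PFD libraries were the lowest together with untreated replicate 1. Over the 16 S phase genes the sum was 278, 323 and 312 CPM in control 5w, 293, 239.9 and 275 in HFpEF, 239.7, 239.7 and 238 in control 9w, 198, 228 and 230.3 in untreated, 214 and 214 in EMPA, 293 and 229.7 in PFD and 200.3, 186 and 237 in EMPA + PFD. These sums varied less, with control 5w replicates 2 and 3 again highest and PFD replicate 1 next to HFpEF replicate 1. In bulk tissue, fewer cycling cells and less RNA of these genes per cell cannot be told apart.

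Fibroblast and macrophage markers were set beside these sums. The 9 fibroblast markers, all 9 of them tested and Col3a1 the most abundant, summed to 5201, 46899 and 38119 CPM in control 5w and 18822, 11487 and 14143 in HFpEF, and to 4974, 3581 and 5199 in control 9w, 4612, 9974 and 4413 in untreated, 4374 and 8801 in EMPA, 5067 and 4519.5 in PFD and 5208, 2412 and 4521 in EMPA + PFD. Control 5w replicates 2 and 3 were highest for fibroblast markers as they were for mitosis genes, whereas PFD replicate 1, high for mitosis genes, lay within the range of control 9w for fibroblast markers. The 12 macrophage and myeloid markers, all 12 tested and Lyz2 the most abundant, summed to 809, 2431 and 1981 CPM in control 5w, 3597, 809 and 2115 in HFpEF, 506, 414 and 571 in control 9w, 522, 1086 and 575 in untreated, 686 and 623 in EMPA, 660.4 and 492 in PFD and 383, 391 and 581 in EMPA + PFD. Here HFpEF replicate 1 was highest, followed by control 5w replicate 2. The part of these cell types in the levels of the cell cycle genes was not tested.

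**Figure D1:**
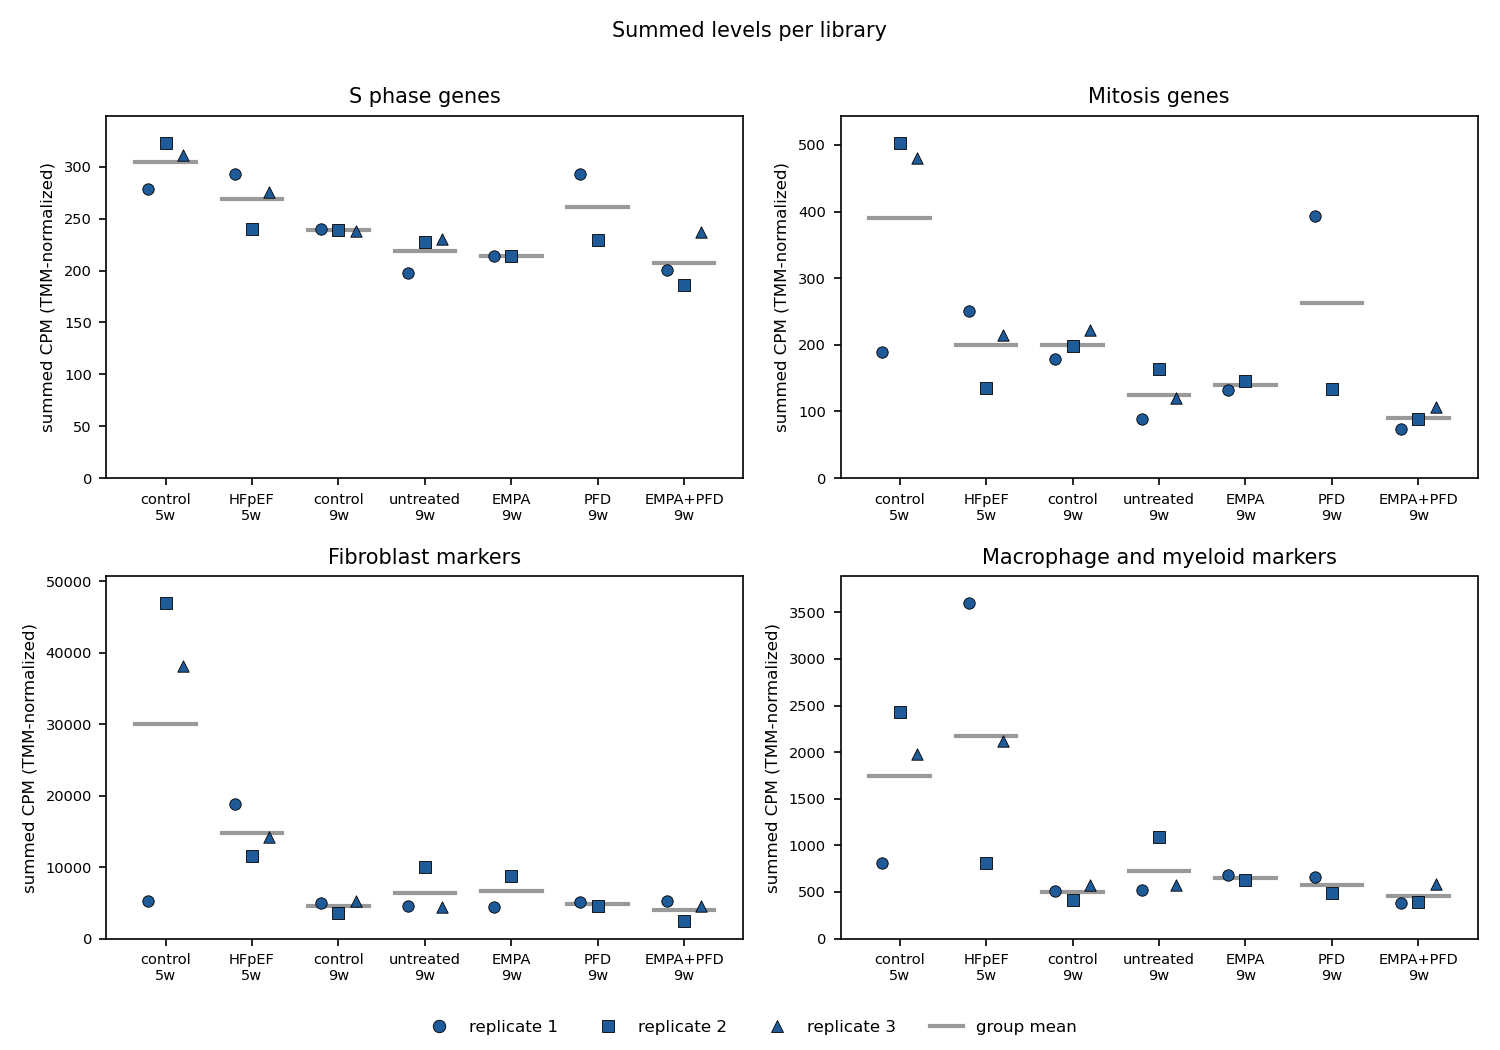
Summed levels, in TMM-normalized CPM, of the S phase genes, the mitosis genes, the fibroblast markers and the macrophage and myeloid markers in each of the 19 libraries, by group. Points are libraries, with shape for replicate number, and grey lines are group means, and the mitosis sum stood at 503, 481 and 393 CPM in control 5w replicates 2 and 3 and PFD replicate 1 and below these values elsewhere.

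Among the S phase genes, the MCM proteins form the helicase that is loaded at replication origins and opens the DNA. Mcm2, a subunit of this helicase, stood at 27.5, 33.7 and 31.2 CPM in control 5w, 23.2, 16.8 and 23.9 in HFpEF, 18.7, 17.1 and 21.5 in control 9w, 18.3, 17.3 and 19.3 in untreated, 18.8 and 18.6 in EMPA, 22.2 and 20.5 in PFD and 20.0, 16.6 and 29.3 in EMPA + PFD. All control 5w libraries were above all HFpEF and control 9w libraries, and of the week 9 libraries only EMPA + PFD replicate 3 reached the range of control 5w. Mcm3, a further subunit, stood at 16.7, 21.2 and 20.8 CPM in control 5w, 17.8, 10.1 and 14.6 in HFpEF, 9.14, 7.75 and 9.47 in control 9w, 5.59, 11.9 and 7.48 in untreated, 8.79 and 10.1 in EMPA, 11.8 and 7.0 in PFD and 6.39, 4.54 and 11.8 in EMPA + PFD. Every week 9 library was below every control 5w library, while HFpEF replicate 1 lay above control 5w replicate 1.

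The level of Mcm5, also of the helicase, was 12.5, 12.3 and 12.0 CPM in control 5w, 10.9, 4.58 and 9.91 in HFpEF, 5.53, 3.94 and 5.98 in control 9w, 5.28, 5.93 and 7.69 in untreated, 6.13 and 6.07 in EMPA, 15.8 and 8.02 in PFD and 5.79, 5.98 and 7.94 in EMPA + PFD. The 3 control 5w libraries lay above all HFpEF and control 9w libraries, and PFD replicate 1 was the highest of all 19. The level of Mcm6, another MCM gene, was 20.5, 25.8 and 26.1 CPM in control 5w, 27.0, 20.9 and 25.1 in HFpEF, 15.8, 19.6 and 16.2 in control 9w, 14.1, 18.3 and 18.9 in untreated, 16.0 and 13.6 in EMPA, 21.4 and 17.1 in PFD and 13.8, 8.01 and 15.6 in EMPA + PFD. HFpEF and control 5w overlapped, and all control 9w, untreated, EMPA and EMPA + PFD libraries were below both.

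Pcna, the sliding clamp that holds DNA polymerase on its template, stood at 64.7, 54.9 and 54.8 CPM in control 5w, 66.6, 70.0 and 67.3 in HFpEF, 65.1, 64.9 and 62.6 in control 9w, 56.1, 57.5 and 64.9 in untreated, 51.5 and 44.8 in EMPA, 77.1 and 65.3 in PFD and 57.4, 55.7 and 56.4 in EMPA + PFD. All HFpEF libraries were above all control 5w libraries, and control 9w overlapped with control 5w. The level of Tyms, thymidylate synthase, which makes the thymidine nucleotide, was 15.3, 15.8 and 16.6 CPM in control 5w, 9.83, 7.70 and 12.1 in HFpEF, 11.3, 7.99 and 7.98 in control 9w, 6.86, 8.85 and 7.06 in untreated, 7.46 and 5.71 in EMPA, 9.53 and 7.30 in PFD and 7.45, 7.65 and 12.8 in EMPA + PFD. The control 5w libraries were above each of the other 16.

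Rrm2, the small subunit of ribonucleotide reductase, which supplies deoxynucleotides, stood at 3.49, 21.1 and 16.2 CPM in control 5w, 5.67, 1.47 and 3.93 in HFpEF, 1.69, 1.60 and 3.89 in control 9w, 0.633, 1.14 and 0.948 in untreated, 1.07 and 2.31 in EMPA, 10.5 and 1.75 in PFD and 0.473, 1.67 and 1.46 in EMPA + PFD. Control 5w replicates 2 and 3 and PFD replicate 1 stood above the other 16 libraries, control 5w replicate 1 lay inside the range of HFpEF and below control 9w replicate 3, and all untreated libraries were below all HFpEF and control 9w libraries. The level of Ccne1, cyclin E1, partner of CDK2 at the entry into S phase, was 1.41, 3.26 and 2.15 CPM in control 5w, 1.36, 0.917 and 1.25 in HFpEF, 0.451, 1.23 and 1.20 in control 9w, 0.844, 0.893 and 1.16 in untreated, 0.533 and 1.09 in EMPA, 2.08 and 0.720 in PFD and 0.946, 0.837 and 1.46 in EMPA + PFD. All control 5w libraries were above all HFpEF and control 9w libraries, though by little in replicate 1 and at few counts. E2f1, a transcription factor of the S phase genes, stood at 7.07, 12.6 and 11.5 CPM in control 5w, 8.90, 3.03 and 7.86 in HFpEF, 4.74, 1.72 and 4.49 in control 9w, 2.32, 3.90 and 4.11 in untreated, 3.20 and 4.86 in EMPA, 13.7 and 2.78 in PFD and 2.72, 1.67 and 2.61 in EMPA + PFD. Control 9w was wholly below control 5w, HFpEF overlapped with it, and PFD replicate 1 was the highest library.

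Among the mitosis genes, the pattern over libraries was largely that of the summed levels. Mki67, which encodes the Ki-67 protein that coats mitotic chromosomes, stood at 25.2, 51.2 and 52.0 CPM in control 5w, 28.1, 12.7 and 24.1 in HFpEF, 20.3, 20.7 and 23.6 in control 9w, 8.02, 16.1 and 12.6 in untreated, 12.7 and 10.2 in EMPA, 53.7 and 15.9 in PFD and 4.26, 6.34 and 8.46 in EMPA + PFD. Control 5w replicates 2 and 3 and PFD replicate 1 stood above the other 16 libraries, and control 5w replicate 1 lay inside the range of HFpEF. The level of Top2a, topoisomerase II alpha, which untangles sister chromatids, was 17.5, 49.7 and 46.1 CPM in control 5w, 20.5, 6.60 and 15.5 in HFpEF, 12.0, 11.6 and 14.8 in control 9w, 4.54, 9.26 and 7.90 in untreated, 7.46 and 8.38 in EMPA, 41.3 and 10.5 in PFD and 4.14, 13.2 and 5.64 in EMPA + PFD. The same 3 libraries were highest, all control 9w libraries were below all control 5w libraries, and EMPA + PFD replicate 2 was above all untreated libraries.

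Cdk1, the kinase that starts mitosis, stood at 4.52, 15.2 and 16.7 CPM in control 5w, 6.96, 1.74 and 5.89 in HFpEF, 4.29, 4.92 and 5.38 in control 9w, 1.16, 3.82 and 2.53 in untreated, 2.80 and 3.40 in EMPA, 10.4 and 3.29 in PFD and 1.06, 1.43 and 2.19 in EMPA + PFD. Again control 5w replicates 2 and 3 and PFD replicate 1 were highest, control 5w replicate 1 lay within HFpEF and control 9w, and untreated was wholly below control 9w. The level of Ccnb1, cyclin B1, the partner of CDK1, was 3.30, 13.8 and 13.4 CPM in control 5w, 5.10, 2.38 and 4.02 in HFpEF, 2.82, 2.21 and 4.49 in control 9w, 1.69, 2.76 and 2.21 in untreated, 2.80 and 2.43 in EMPA, 5.81 and 1.95 in PFD and 0.946, 1.32 and 1.98 in EMPA + PFD. Control 5w replicates 2 and 3 were the 2 highest libraries and replicate 1 was below HFpEF replicates 1 and 3, so the week 5 groups overlapped.

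Aurkb, the kinase of the chromosomal passenger complex, stood at 4.52, 9.00 and 7.56 CPM in control 5w, 6.39, 2.66 and 4.91 in HFpEF, 4.40, 4.92 and 5.78 in control 9w, 1.79, 4.79 and 2.42 in untreated, 2.13 and 3.28 in EMPA, 9.53 and 2.67 in PFD and 0.591, 3.35 and 2.93 in EMPA + PFD. PFD replicate 1 was highest, and control 5w replicate 1 lay inside the ranges of HFpEF and of control 9w. The level of Plk1, a kinase of spindle assembly and mitotic exit, was 2.36, 8.15 and 7.24 CPM in control 5w, 5.38, 3.03 and 4.38 in HFpEF, 3.38, 4.67 and 4.59 in control 9w, 1.58, 3.98 and 2.00 in untreated, 3.60 and 3.04 in EMPA, 5.70 and 3.09 in PFD and 1.89, 2.15 and 1.88 in EMPA + PFD. Control 5w split into replicates 2 and 3, the highest of all 19 libraries, and replicate 1, which was below all HFpEF and control 9w libraries. Foxm1, a transcription factor of the mitosis genes, stood at 5.46, 11 and 12.3 CPM in control 5w, 10.2, 5.78 and 7.95 in HFpEF, 7.44, 8.98 and 8.08 in control 9w, 3.69, 7.39 and 4.32 in untreated, 6.39 and 8.02 in EMPA, 13.5 and 4.53 in PFD and 3.31, 3.59 and 5.22 in EMPA + PFD. As for Plk1, control 5w replicate 1 was below all HFpEF and control 9w libraries and replicates 2 and 3 above them, and PFD replicate 1 was highest.

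The level of Racgap1, a part of centralspindlin, which bundles the midzone of the spindle, was 3.77, 10.9 and 11 CPM in control 5w, 5.31, 1.56 and 4.11 in HFpEF, 2.26, 2.34 and 5.38 in control 9w, 1.90, 3.33 and 2.95 in untreated, 0.799 and 1.82 in EMPA, 7.34 and 2.88 in PFD and 1.54, 1.79 and 2.82 in EMPA + PFD. Control 5w replicate 1 was below HFpEF replicates 1 and 3 and control 9w replicate 3, so control 5w overlapped with both. Kif23, the motor of centralspindlin, stood at 6.97, 15.8 and 17.3 CPM in control 5w, 6.96, 4.22 and 8.04 in HFpEF, 4.96, 6.03 and 7.88 in control 9w, 2.32, 4.14 and 3.58 in untreated, 4.00 and 4.49 in EMPA, 11.9 and 5.97 in PFD and 1.66, 2.27 and 1.78 in EMPA + PFD. HFpEF replicate 3 was above control 5w replicate 1, so these groups overlapped. All untreated libraries were below all HFpEF and control 9w libraries, and all EMPA + PFD libraries were below all untreated libraries.

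**Figure D2:**
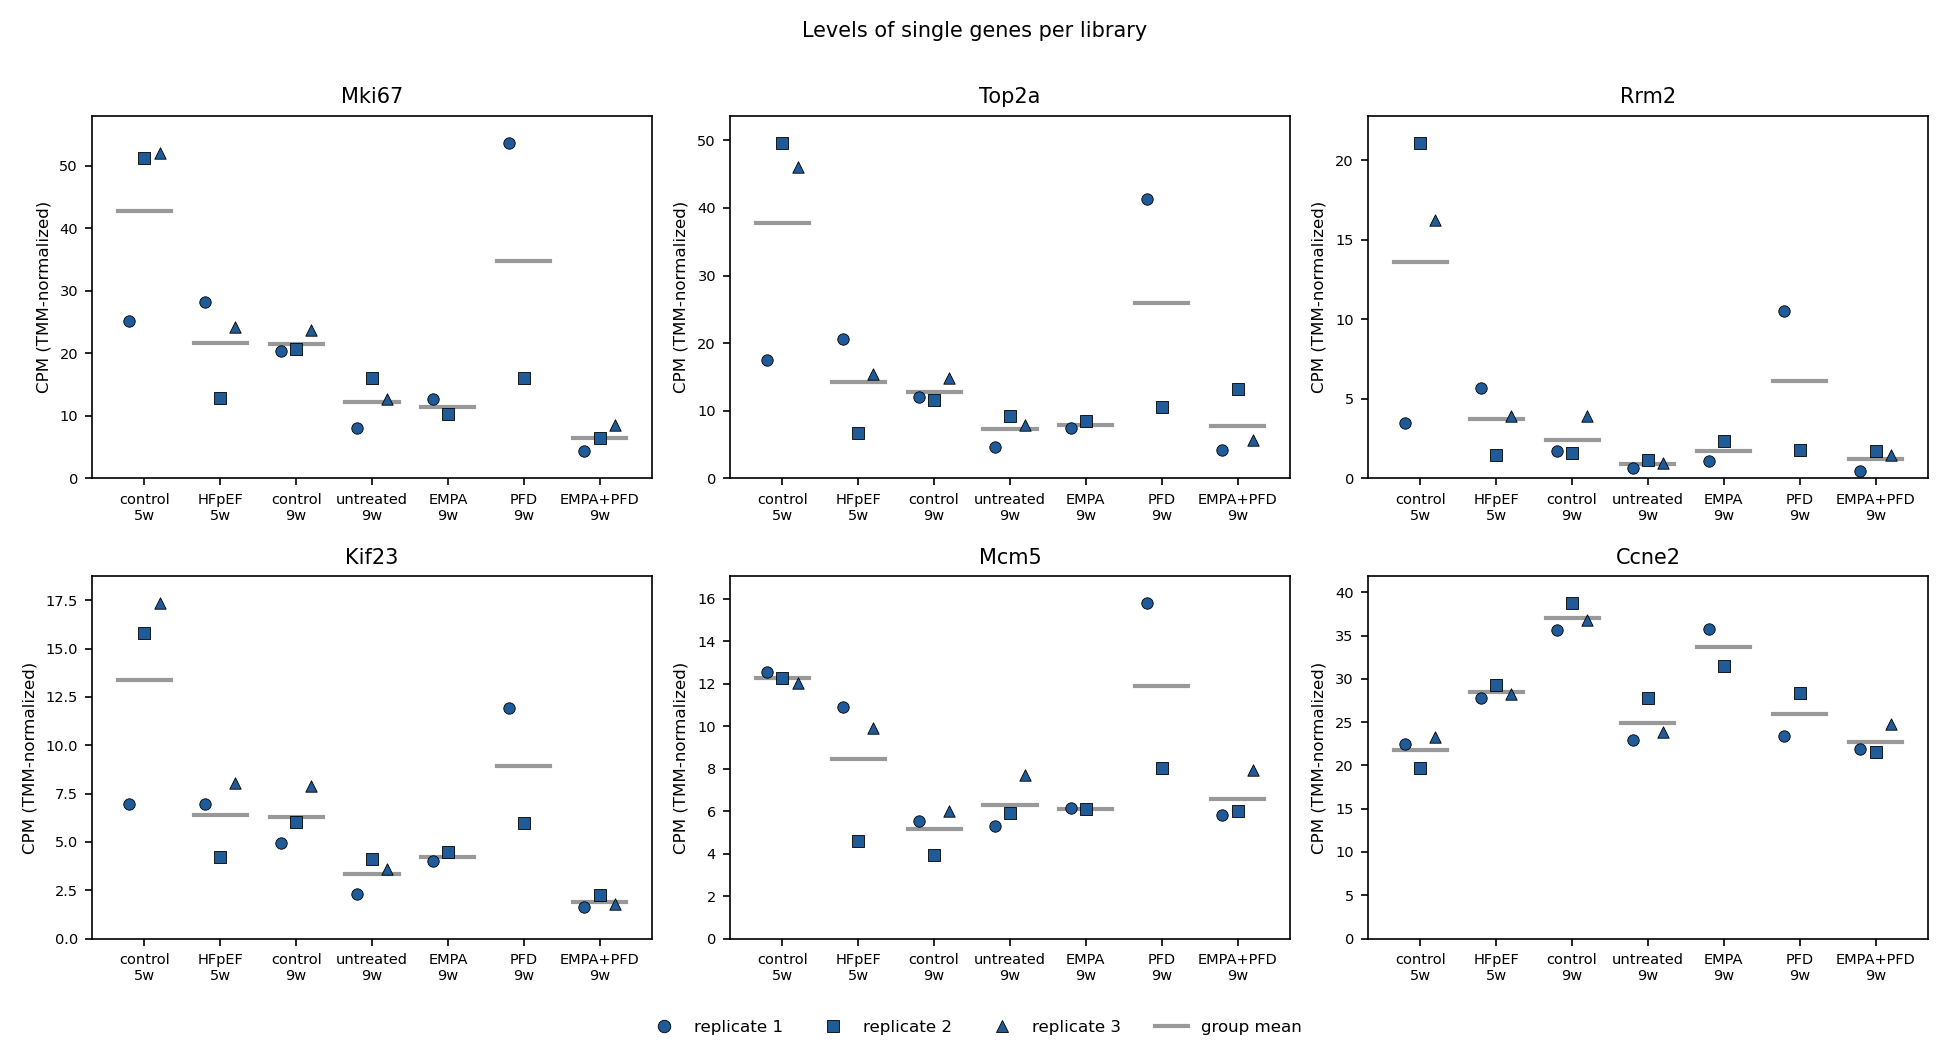
Levels of Mki67, Top2a, Rrm2, Kif23, Mcm5 and Ccne2 in each library in TMM-normalized CPM, by group, with points for libraries (shape for replicate number) and grey lines for group means. Control 5w replicates 2 and 3 and PFD replicate 1 stand above the rest for Mki67, Top2a, Rrm2 and Kif23, and Ccne2 is highest in control 9w.

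The onset of disease was read from HFpEF against control 5w. Of the 47 genes, 2 fell in HFpEF, the mitosis genes Hmmr and Kif23, and none rose, beside 8.69% of all tested genes called in either direction, a lower share than that of all genes by edgeR. A gene was called at a Benjamini-Hochberg adjusted p under 0.05 in edgeR's quasi-likelihood test, which gave all adjusted p-values unless another tool is named, and at least a 2-fold change. The fitted change was negative for 31 of 31 mitosis genes, with a median of −1.10 on the log2 scale and a range of −1.65 to −0.20, and for 12 of 16 S phase genes, with a median of −0.53 and a range of −1.87 to 0.38, beside a median of 0.02 over all tested genes. In 9 of the 47 genes, 7 of S phase and 2 of mitosis, every HFpEF library was below every control 5w library, about the same share as the 19.1% of all tested genes. Without HFpEF replicate 2 the S phase median was −0.35.

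Hmmr, a spindle protein that binds hyaluronan outside the cell, stood at 6.97, 13.9 and 13.5 CPM in control 5w and 4.16, 2.84 and 4.56 in HFpEF, with all 3 HFpEF libraries below all control 5w libraries. Its log2 fold change was −1.57 (SE 0.42, adjusted p = 0.0194). Kif23 had a log2 fold change of −1.06 (SE 0.36, adjusted p = 0.0479), with 2 of 3 HFpEF libraries below all control 5w libraries and the third above replicate 1. Fitted changes larger than that of Kif23 that did not pass were found for Rrm2 at −1.87 (SE 0.70, adjusted p = 0.0702), Top2a at −1.41 (SE 0.54, adjusted p = 0.0763) and Ccnb1 at −1.41 (SE 0.50, adjusted p = 0.0598). For all 3, and for the next 3, control 5w replicate 1 lay inside the range of HFpEF. Cdk1 had a change of −1.31 (SE 0.56, adjusted p = 0.107) and Racgap1 of −1.22 (SE 0.53, adjusted p = 0.111). Mki67 was at −0.98 (SE 0.41, adjusted p = 0.103). Nearer to 0 were Aurkb at −0.59, Plk1 at −0.47 and Foxm1 at −0.26 (adjusted p of 0.432 or more), with control 5w replicate 1 inside the range of HFpEF for Aurkb and below it for Plk1 and Foxm1. With single libraries left out these 3 ran from −0.89 to −0.31, −0.84 to −0.17 and −0.54 to −0.05.

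In the S phase list, Tyms had a log2 fold change of −0.69 (SE 0.23, adjusted p = 0.0511) and Mcm2 of −0.53 (SE 0.18, adjusted p = 0.0517), each with all 3 HFpEF libraries below control 5w and an adjusted p just over the threshold. Mcm5 was at −0.53 (SE 0.30, adjusted p = 0.216), also lower in 3 of 3, and Mcm3 at −0.46 (SE 0.33, adjusted p = 0.327), lower in 2 of 3. Ccne1 was at −0.94 (SE 0.45, adjusted p = 0.144) and E2f1 at −0.65 (SE 0.51, adjusted p = 0.381), the former lower in all 3 HFpEF libraries and the latter overlapping. Mcm6 had a change of 0.01 (SE 0.21, adjusted p = 0.975), negative without control 5w replicate 1 or HFpEF replicate 1 or 3, and Pcna had a positive change of 0.22 (SE 0.10, adjusted p = 0.108) with all HFpEF libraries higher. Without HFpEF replicate 2 the changes were −0.24 for Mcm5, −0.27 for Mcm3 and −0.31 for E2f1, and Ccne1 was at −0.59 without control 5w replicate 2. By the adjusted p alone 4 of the 47 passed (2478 of all 12388 did), the others being Cdc45, of the helicase, and Ccne2. At an unadjusted p under 0.05 27 passed (4436 of all 12388 did). On the same counts DESeq2 called 8 of the 47 beside 1271 of 12388 tested genes and limma voom with quality weights 25 beside 1363 of 12388, higher shares than those of all genes.

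The call of Hmmr was lost without control 5w replicate 2 (adjusted p = 0.0564), control 5w replicate 3 (adjusted p = 0.0585) or HFpEF replicate 2 (adjusted p = 0.0691), at changes of −1.43 to −1.40, and that of Kif23 without any of 14 libraries, with an adjusted p from 0.0514 to 0.161 and changes of −1.25 to −0.83, so that it was kept only without control 5w replicate 1, untreated replicate 1 or 2 or either PFD library. The call of Kif23 was also lost with only the libraries of the 2 groups, without a filter or by upper-quartile scaling. With the replicate number as a block it was lost too. The number of genes called was 11 without control 5w replicate 1 (beside 730 of 12380 tested genes, again a higher share), 0 without control 5w replicate 2 (6 at an unadjusted p under 0.05) or HFpEF replicate 2 (4 at that p), 3 without HFpEF replicate 1 or PFD replicate 1, and 4 without PFD replicate 2. It was 1, Cdc45, without control 5w replicate 3, and 1, Hmmr, without HFpEF replicate 3, any control 9w library, untreated replicate 3, either EMPA library or any EMPA + PFD library. Without both control 5w replicates 2 and 3, which leaves control 5w with 1 library, assumed to vary like the other groups, 0 of the 47 genes were called by edgeR, 3 passed an unadjusted p under 0.05, and the medians were −0.0037 for mitosis and −0.26 for S phase genes. As the 2 were taken out after they were seen to be high in mitosis genes, this omission is no test of the direction wherever it is given. HFpEF differs from control 5w also in that 2 of its 3 libraries lack Eif2s3y counts. Without the libraries at 0 counts of Eif2s3y, which leaves HFpEF with 1 library under the same assumption, 9 genes were called beside 994 of 12445. Hmmr and Kif23 were not among them, at changes of −1.94 and −1.60, and the medians were −1.68 for mitosis and −0.94 for S phase genes.

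In healthy hearts, control 9w was set against control 5w. Here 13 of the 47 genes fell and none rose, 5 of S phase and 8 of mitosis, beside 14.7% of all tested genes called in either direction, a higher share than that of all genes. This comparison and that of HFpEF use the same control 5w libraries, and their fold changes are not independent. All 31 mitosis genes had negative fitted changes, with a median of −1.09 and a range of −1.81 to −0.11, and 14 of 16 S phase genes did, with a median of −0.75 and a range of −2.49 to 0.76. The median over all tested genes was −0.04. In 17 of the 47 genes, 10 of S phase and 7 of mitosis, every control 9w library was below every control 5w library, beside 24.7% of all tested genes.

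Of the S phase genes, Rrm2 fell by 2.49 on the log2 scale (SE 0.73, adjusted p = 0.0173), with 2 of 3 control 9w libraries below all control 5w libraries and replicate 3 above control 5w replicate 1. The change of E2f1 was −1.50 (SE 0.54, adjusted p = 0.0422), that of Mcm5 −1.25 (SE 0.31, adjusted p = 0.00736) and that of Mcm3 −1.15 (SE 0.34, adjusted p = 0.0169), each lower in 3 of 3 control 9w libraries. Tk1, thymidine kinase of the nucleotide salvage pathway, stood at 12.2, 16.0 and 15.9 CPM in control 5w and 7.11, 7.13 and 4.49 in control 9w, with no overlap, and at 11.6, 4.40 and 8.31 CPM in HFpEF. Its change was −1.24 (SE 0.33, adjusted p = 0.0112). Mcm2 at −0.69 (SE 0.18, adjusted p = 0.0108) and Tyms at −0.81 (SE 0.24, adjusted p = 0.0173) passed the adjusted p but not the 2-fold threshold, both with all control 9w libraries lower. That p was lost for Mcm2 without control 9w replicate 2 (change −0.61) and for Tyms without control 5w replicate 3 or control 9w replicate 2 or 3 (−0.77 to −0.72). Ccne1 was at −1.24 (SE 0.47, adjusted p = 0.0520), just over the adjusted p threshold. Mcm6 had a change of −0.49 (SE 0.21, adjusted p = 0.0792) with all 3 control 9w libraries below control 5w, and Pcna a change of 0.14 (SE 0.10, adjusted p = 0.264) with overlapping libraries.

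Of the mitosis genes, Cdca3, which triggers the breakdown of the mitotic inhibitor WEE1, stood at 2.36, 10.5 and 8.59 CPM in control 5w and 2.26, 1.72 and 2.09 in control 9w, just without overlap. Its change was −1.81 (SE 0.61, adjusted p = 0.0321). Tpx2, which activates Aurora A on the spindle, stood at 7.16, 21.2 and 21.1 CPM in control 5w and 4.51, 6.52 and 6.28 in control 9w, and its change was −1.51 (SE 0.51, adjusted p = 0.0321) with all control 9w libraries lower. Hmmr, at 1.92, 2.83 and 5.98 CPM in control 9w, had a change of −1.67 (SE 0.43, adjusted p = 0.00857), again in 3 of 3 libraries. Top2a fell likewise in 3 of 3, with a change of −1.56 (SE 0.54, adjusted p = 0.0378). Ccnb1 at −1.67 (SE 0.51, adjusted p = 0.0211) and Kif23 at −1.09 (SE 0.36, adjusted p = 0.0301) were called although control 9w replicate 3 was above control 5w replicate 1 for both. The remaining genes called, named after their values were seen, were the checkpoint kinase Ttk and Cdca8 of the chromosomal passenger complex, with changes of −1.45 and −1.27, and both groups overlapped for each.

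Other mitosis genes followed in every library did not pass. Mki67 had a change of −0.99 (SE 0.42, adjusted p = 0.0767), lower in 3 of 3 control 9w libraries. Cdk1 had a change of −1.32 (SE 0.57, adjusted p = 0.0832) and Racgap1 of −1.36 (SE 0.54, adjusted p = 0.0625), and for both control 5w replicate 1 lay inside the range of control 9w. Smaller changes were those of Aurkb at −0.48, Plk1 at −0.49 and Foxm1 at −0.23 (adjusted p of 0.378 or more), 3 genes for which control 5w replicate 1 was within or below the range of control 9w, and with single libraries left out they ran from −0.71 to −0.26, −0.86 to −0.19 and −0.50 to −0.02. By the adjusted p alone 18 genes passed (4276 of all 12388 did), and 29 at an unadjusted p under 0.05 (5626 of all 12388 did). The latter number was 16 without control 5w replicate 2, 18 without control 9w replicate 1 and 39 without control 5w replicate 1. DESeq2 called 17 of the 47 beside 1958 of 12388 tested genes and limma voom 32 beside 2716 of 12388.

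The number called depended on single libraries. It was 27 without control 5w replicate 1 (beside 2025 of 12380), and it was 3 without control 5w replicate 2 (beside 1335 of 12367 tested genes), 5 without control 5w replicate 3 (1438 of 12371), 4 without control 9w replicate 1 (1415 of 12370) and 3 without control 9w replicate 2 (1206 of 12361), in these 4 a lower share than that of all genes, and between 9 and 16 without any other library. Hmmr, Mcm5 and Tk1 were called under each of these 19 omissions. The call of Mcm3 was lost without control 5w replicate 2 or control 9w replicate 2, that of Rrm2 without control 5w replicate 2 or control 9w replicate 1 or 2, those of Ccnb1 and Kif23 without control 5w replicate 2 or 3 or control 9w replicate 1 or 2, and those of Top2a, Cdca3, Cdca8 and Tpx2 without control 5w replicate 2 or 3 or control 9w replicate 1, 2 or 3. That of Ttk was lost without control 5w replicate 2 or 3, control 9w replicate 1 or 2, untreated replicate 3 or EMPA + PFD replicate 2 and that of E2f1 without control 5w replicate 2 or 3, HFpEF replicate 3, control 9w replicate 1, 2 or 3, untreated replicate 3 or EMPA + PFD replicate 3. Under these losses the changes were −1.09 to −1.07 for Mcm3, −2.29 to −2.03 for Rrm2, −1.59 to −1.39 for Ccnb1, −1.06 to −0.86 for Kif23, −1.68 to −1.32 for Top2a, −1.90 to −1.43 for Cdca3, −1.29 to −0.88 for Cdca8, −1.61 to −1.29 for Tpx2, −1.45 to −1.20 for Ttk and −1.72 to −1.17 for E2f1. With only the libraries of the 2 groups the calls of Ccnb1, Kif23, Cdca8 and Ttk were lost. With the replicate number as a block those of Top2a, Cdca3 and Cdca8 were lost. Without both control 5w replicates 2 and 3, 0 genes were called by edgeR (4 at an unadjusted p under 0.05), with changes of −0.96 for Hmmr, −1.28 for Mcm5 and −0.98 for Tk1 and medians of 0.10 for mitosis and −0.55 for S phase genes. This is no test of direction. The libraries of control 9w also carry RT1-CE16 counts that those of control 5w lack, and the week and this difference cannot be told apart.

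Ccne2 went another way and is named after its values were seen. The level of Ccne2, cyclin E2, a partner of CDK2 like cyclin E1, was 22.4, 19.7 and 23.3 CPM in control 5w, 27.8, 29.3 and 28.3 in HFpEF, 35.6, 38.7 and 36.8 in control 9w, 23.0, 27.8 and 23.9 in untreated, 35.8 and 31.5 in EMPA, 23.4 and 28.4 in PFD and 21.9, 21.5 and 24.8 in EMPA + PFD. Each HFpEF library was above each control 5w library and each control 9w library above all of these, while untreated was wholly below control 9w and, by a small margin in replicate 2, below HFpEF. Both EMPA libraries were above all untreated libraries and replicate 1 lay inside the range of control 9w. Its log2 fold change was 0.38 (SE 0.11, adjusted p = 0.0260) in HFpEF against control 5w and 0.76 (SE 0.11, adjusted p = 0.000341) in control 9w against control 5w. Untreated against control 9w gave −0.57 (SE 0.11, adjusted p = 0.0247). All 3 passed the adjusted p and none the 2-fold threshold, each in 3 of 3 libraries. The adjusted p was over 0.05 in HFpEF without control 5w replicate 1 or 2 or HFpEF replicate 2 or 3 (at most 0.0922, changes of 0.31 to 0.41). It was over 0.05 in untreated without control 9w replicate 1 or 2 or untreated replicate 1 or 3 (at most 0.118, changes of −0.60 to −0.52), and in both with only the libraries of the 2 groups. Without the libraries at 0 counts of Eif2s3y, which leaves HFpEF with 1 library, the log2 fold change in HFpEF was 0.49. In the GRCr8 assembly Ccne2 overlaps Ints8, which was not analysed here, and reads of the neighbour may be among its counts.

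Established disease at week 9 was read from untreated against control 9w. None of the 47 genes was called by edgeR, beside 0.912% of all tested genes. Of the 47, 3 passed an unadjusted p under 0.05 (2259 of all 12388 did) and 1, Ccne2, the adjusted p (220 of all 12388 did). DESeq2 called 0 beside 298 of 12388 and limma voom 3 beside 1037 of 12388 (Ect2, Kif11 and Prc1). All 31 mitosis genes had a negative fitted change, with a median of −0.72 and a range of −1.52 to −0.02, and the S phase genes a median of −0.08 with 12 of 16 negative and a range of −1.39 to 0.29. The S phase median was −0.01 without untreated replicate 1, −0.23 without untreated replicate 2 and −0.16 by limma voom. Over all tested genes the median was 0.01. Kif23 had a change of −0.90 and Cdk1 of −0.94, with all untreated libraries below all control 9w libraries for both. Rrm2, at −1.39, was likewise lower in 3 of 3. Without control 9w replicate 3 Rrm2 was at −0.84, and without untreated replicate 1 Cdk1 at −0.61. Mki67 at −0.81 and Top2a at −0.81 were also lower in 3 of 3 libraries. These differences did not pass the test (adjusted p of 0.213 or more), and the lack of Eif2s3y counts in all untreated libraries cannot be told apart from the disease. Of the markers, 0 of 9 fibroblast (0.67), 2 of 12 macrophage (0.54), 3 of 10 lymphocyte (0.83), 9 of 10 endothelial (−0.26), 3 of 8 smooth muscle (0.19), 1 of 10 ventricular (0.31) and 6 of 6 atrial (−0.75) were negative (medians in brackets), and their part was not tested.

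Whether the disease effect differed between weeks 9 and 5 was tested as the difference of the 2 fold changes. By edgeR 0 of the 47 genes were called, beside 12% of all tested genes, with 2 at an unadjusted p under 0.05 (4374 of all 12388), 0 by DESeq2 beside 1795 of 12388 and 4 by limma voom beside 2559 of 12388 (Ccne1, Hmmr, Racgap1 and Tpx2). The median difference was 0.45 for S phase genes (12 of 16 positive) and 0.37 for mitosis genes (24 of 31 positive), and −0.02 over all tested genes. The mitosis median was 0.72 without control 5w replicate 1, 0.18 without control 5w replicate 2, 0.14 without control 5w replicate 3, 0.07 without HFpEF replicate 2, 0.08 without untreated replicate 2 and 0.19 over the genes with at least 10 counts in every library, and the S phase median 0.21 without HFpEF replicate 2. Of the 47, Ccne2 alone passed the adjusted p (2473 of all 12388 did), with a difference of −0.96 (SE 0.16, adjusted p = 0.00206). Its level was higher in all 3 HFpEF libraries than in control 5w and lower in all 3 untreated libraries than in control 9w. It passed the 2-fold threshold too, as the only gene of the 47, without control 5w replicate 3 (a difference of −1.01) or untreated replicate 2 (−1.04). For Rrm2 the difference was 0.49, for Top2a 0.59 and for Cdk1 0.37. Mki67 and Kif23 were at 0.17 and 0.16, all 5 with an adjusted p of 0.615 or more. With single libraries left out Rrm2 ran from 0.02 to 1.03 and Top2a from 0.26 to 0.96. Differences changed sign without a single library, that of Cdk1 without HFpEF replicate 2 or untreated replicate 2 (lowest at −0.08), that of Kif23 without control 5w replicate 3, HFpEF replicate 2 or untreated replicate 2 (lowest at −0.07) and that of Mki67 without HFpEF replicate 2 or untreated replicate 2 (lowest at −0.10). Without both control 5w replicates 2 and 3 the medians were −0.84 for mitosis and 0.16 for S phase genes.

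From week 5 to week 9 of untreated disease (untreated against HFpEF), none of the 47 genes was called by edgeR, beside 0.194% of all tested genes. At an unadjusted p under 0.05 there were 7 (2817 of all 12388), and DESeq2 called 0 beside 441 of 12388 and limma voom 4 beside 1076 of 12388 (Bub1, Cdca8, Kif23 and Plk1). The number at that unadjusted p was 0 without untreated replicate 1, 2 without HFpEF replicate 1 or 3 and 15 without HFpEF replicate 2. The mitosis genes were all negative, 31 of 31, with a median of −0.78 and a range of −1.37 to −0.15. The S phase genes had a median of −0.36, 14 of 16 negative (−0.21 without HFpEF replicate 1), and all tested genes a median of −0.01. Of the macrophage markers 12 of 12 and of the fibroblast markers 8 of 9 were negative as well, with medians of −1.29 and −1.10. So were 9 of 10 lymphocyte (−0.51) and 5 of 8 smooth muscle markers (−0.12), with medians in brackets. Of the other lists, 0 of 10 endothelial (0.16), 0 of 10 ventricular (0.90) and 1 of 6 atrial markers (5.83) were negative. The part of these markers was not tested. Rrm2 had a change of −2.01 (SE 0.79, adjusted p = 0.162) and Kif23 of −0.93 (SE 0.37, adjusted p = 0.165), both with untreated wholly below HFpEF. Top2a was at −0.97, Cdk1 at −0.95 and Mki67 at −0.82, each with overlapping libraries. Without HFpEF replicate 1 Top2a was at −0.60 and Cdk1 at −0.59. Ccne2 was at −0.19, and these 4 had an adjusted p of 0.257 or more. Week 5 and week 9 libraries differ in RT1-CE16, which cannot be told apart from time here.

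The combined treatment was set against untreated disease. By edgeR none of the 47 genes was called in EMPA + PFD, beside 3.82% of all tested genes. There were 3 at an unadjusted p under 0.05 (4055 of all 12388), 0 by DESeq2 (715 of 12388) and 0 by limma voom (834 of 12388). Mitosis genes had a median change of −0.64 with 28 of 31 negative and a range of −1.66 to 0.64, beside −0.03 over all tested genes, and the median was −0.27 without untreated replicate 2 and −0.30 by limma voom. For S phase genes the median was −0.01, 8 of 16 negative, and its sign changed with the scaling of the libraries and without control 5w replicate 1, untreated replicate 3, PFD replicate 1 or 2 or EMPA + PFD replicate 2. In 9 of the 47 genes, 8 of them of mitosis, every EMPA + PFD library was below every untreated library, beside 18.7% of all tested genes. Kif23 was among these, with a change of −0.82 (SE 0.40, adjusted p = 0.168). Mki67 had a change of −0.95 (SE 0.45, adjusted p = 0.155) and Cdk1 of −0.68, at −0.23 without untreated replicate 2 and −0.30 by limma voom. For Mki67 2 of 3 EMPA + PFD libraries were below all untreated libraries and for Cdk1 1 of 3. Rrm2, with overlapping libraries, was at 0.39, from 0.11 to 0.78 with single libraries left out, and Ccne2 at −0.13, and Cdk1, Rrm2, Ccne2 and Top2a had an adjusted p of 0.415 or more. For Top2a, with EMPA + PFD replicate 2 above and replicate 1 below all untreated libraries, the change was 0.07 and ran from −0.55 to 0.38 with each library left out in turn, the lowest without EMPA + PFD replicate 2, and it was negative without untreated replicate 1 or EMPA + PFD replicate 2. All EMPA + PFD libraries carry Eif2s3y counts and no untreated library does. Of the markers, 9 of 9 fibroblast (−0.66), 11 of 12 macrophage (−0.66), 8 of 10 lymphocyte (−1.14), 10 of 10 endothelial (−0.71), 8 of 8 smooth muscle (−0.61), 0 of 10 ventricular (0.84) and 5 of 6 atrial (−6.03) were negative (medians in brackets), and their part was not tested.

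EMPA alone, with 2 libraries, was set against untreated. None of the 47 genes was called by edgeR, beside 0.0404% of all tested genes, 2 passed an unadjusted p under 0.05 (1069 of all 12388 did), and DESeq2 and limma voom called 0 each, beside 51 of 12388 and 24 of 12388. The median change was 0.23 for mitosis genes (22 of 31 positive) and −0.03 for S phase genes (7 of 16 positive), beside 0.01 over all tested genes. The mitosis median was −0.0040 without untreated replicate 1, 0.42 without untreated replicate 2 and 0.04 without EMPA replicate 2, and the S phase median turned positive without untreated replicate 3 or EMPA replicate 1. Rrm2 had a change of 0.88, Ccne2 of 0.43 (SE 0.12, adjusted p = 0.277) and Kif23 of 0.34. With single libraries left out Rrm2 ran from 0.22 to 1.32 and Kif23 from 0.13 to 0.52. Both EMPA libraries were above all untreated libraries for Ccne2, and 1 of 2 for Rrm2 and Kif23. Cdk1, Top2a and Mki67 were at 0.29, 0.13 and −0.11, these 3, Rrm2 and Kif23 with an adjusted p of 0.868 or more. The last 3 changed sign with a single library left out, Cdk1 without untreated replicate 1 (−0.04), Top2a without untreated replicate 1 (−0.12) and Mki67 without untreated replicate 2 or EMPA replicate 2 (highest at 0.14).

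With PFD alone, the fitted changes of the mitosis genes were positive in 29 of 31, with a median of 1.18 and a range of −0.05 to 1.97, and those of the S phase genes in 14 of 16, with a median of 0.24, beside −0.02 over all tested genes. None of the 47 was called by edgeR, beside 0.00807% of all tested genes, although 22 passed an unadjusted p under 0.05 (646 of all 12388 did), and DESeq2 and limma voom called 0 each, beside 4 of 12388 and 5 of 12388. In settings that kept both PFD libraries, the number at that unadjusted p was 6 without untreated replicate 1 and 14 without untreated replicate 3. It was 8 with only the libraries of the 2 groups. Omitting a PFD library leaves that group with 1, so for this only fitted changes are given below, and they depended on replicate 1. Rrm2 had a change of 2.72, Top2a of 1.83 and Mki67 of 1.50. Cdk1 was at 1.43, Kif23 at 1.41 and Ccne2 at 0.06, each with an adjusted p of 0.786 or more. Both PFD libraries were above all untreated libraries for Rrm2, Top2a and Kif23, replicate 1 alone for Mki67 and Cdk1, and replicate 2 alone for Ccne2, whose change was negative without PFD replicate 2. Without PFD replicate 1 the median was 0.07 for mitosis genes and 0.06 for S phase genes, and without replicate 2 it was 1.75 and 0.43. Over the genes with at least 10 counts in every library the S phase median was 0.15. Without PFD replicate 1 the changes of Rrm2, Top2a, Mki67, Cdk1 and Kif23 were 0.92, 0.53, 0.37, 0.37 and 0.82. Of the markers, 9 of 9 fibroblast (−0.47), 11 of 12 macrophage (−0.37), 10 of 10 lymphocyte (−0.48), 9 of 10 endothelial (−0.26), 8 of 8 smooth muscle (−0.51), 0 of 10 ventricular (0.57) and 5 of 6 atrial (−5.82) were negative (medians in brackets), with 4 atrial markers at an unadjusted p under 0.05, and their part was not tested.

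The interaction, EMPA + PFD less both drugs alone plus untreated, was negative for 31 of 31 mitosis genes, with a median of −1.89, and for 12 of 16 S phase genes, with a median of −0.36, beside −0.01 over all tested genes. By edgeR 0 of the 47 were called, beside 0.00807% of all tested genes, with 24 at an unadjusted p under 0.05 (1131 of all 12388), 1 by DESeq2 (Kif23, beside 38 of 12388) and 0 by limma voom (63 of 12388). Among omissions that left at least 2 libraries in every group, the number at that unadjusted p was lowest at 13, without untreated replicate 1 or EMPA + PFD replicate 1. Omitting an EMPA or PFD library leaves that group with 1, and no such number is given for it. Rrm2 had an interaction of −3.21, Kif23 of −2.56 (SE 0.60, adjusted p = 0.229) and Cdk1 of −2.40. Mki67 was at −2.34, Top2a at −1.89 and Ccne2 at −0.62, all but Kif23 with an adjusted p of 0.353 or more. Since PFD replicate 1 enters this contrast as well, the mitosis median was −0.73 without it and the S phase median −0.08, which was −0.17 without EMPA + PFD replicate 2. Without PFD replicate 1 Rrm2 was at −1.39, Cdk1 at −1.33, Mki67 at −1.19 and Top2a at −0.56. The comparisons with untreated share its 3 libraries.

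**Figure D3:**
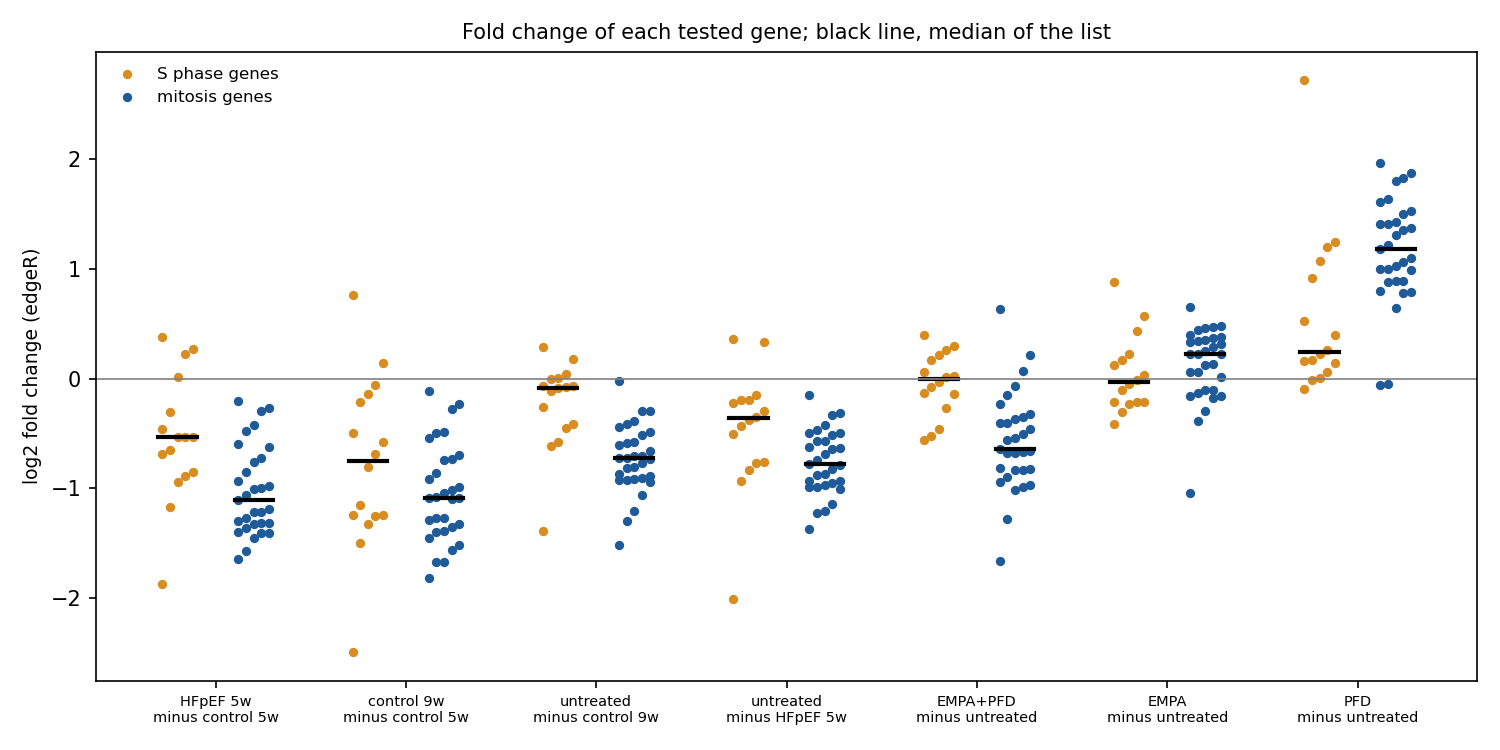
Log2 fold change of each of the 47 tested genes in 7 comparisons named on the horizontal axis, in orange for S phase and blue for mitosis genes, with the median of each list as a black line. The mitosis medians lie at −1.10, −1.09, −0.72, −0.78, −0.64, 0.23 and 1.18 from left to right, and the last of these is 0.07 without PFD replicate 1.

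The other genes of the pathway were taken from 5 lists. Upstream of cyclin E stand the D cyclins, which activate CDK4 and CDK6 in response to growth signals. Ccnd2, cyclin D2, stood at 72.0, 126 and 131 CPM in control 5w, 39.0, 14.3 and 34.2 in HFpEF, 16.7, 7.87 and 25.2 in control 9w, 48.6, 21.6 and 42.0 in untreated, 20.2 and 47.6 in EMPA, 59.8 and 41.5 in PFD and 76.7, 93.1 and 76.3 in EMPA + PFD. All control 5w libraries were above all HFpEF and control 9w libraries, and the 3 EMPA + PFD libraries were the highest of week 9. Ccnd2 fell in HFpEF, with a log2 fold change of −1.91 (SE 0.45, adjusted p = 0.0120), and in control 9w, with −2.71 (SE 0.47, adjusted p = 0.000953), in 3 of 3 libraries each time. The difference of the disease effect between weeks was 3.07 (SE 0.64, adjusted p = 0.00656), with untreated replicates 1 and 3 above all control 9w libraries. Its calls were kept under each omission of a single library, with an adjusted p of at most 0.0422 in HFpEF, and that in HFpEF was lost without both control 5w replicates 2 and 3 (log2 fold change −1.31), while those in control 9w and in the difference were kept.

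The level of Ccnd1, cyclin D1, was 242, 141 and 141 CPM in control 5w, 133, 152 and 181 in HFpEF, 225, 242 and 235 in control 9w, 121, 164 and 187 in untreated, 107 and 133 in EMPA, 168 and 147 in PFD and 84.4, 48.8 and 99.9 in EMPA + PFD. Control 5w replicate 1 was above replicates 2 and 3 and every HFpEF library, HFpEF overlapped with replicates 2 and 3, and all EMPA + PFD libraries were below every other library. Ccnd1 fell in EMPA + PFD against untreated, at −1.02 (SE 0.26, adjusted p = 0.0257) in 3 of 3 libraries, close to the 2-fold threshold. The call was lost with only the libraries of the 2 groups compared, without untreated replicate 2 (adjusted p = 0.0894), untreated replicate 3 (adjusted p = 0.0785) or EMPA + PFD replicate 2 (adjusted p = 0.120), at changes of −0.99 to −0.76, and by RLE scaling or DESeq2, where the log2 fold change was −0.99. Against control 5w it had changes of −0.17 in HFpEF and 0.42 in control 9w. For Ccnd3, cyclin D3, the changes were 0.02 in HFpEF and 0.02 in control 9w, with overlapping libraries, and the adjusted p of these 4 was 0.211 or more. Signs turned for Ccnd1 in HFpEF without control 5w replicate 1, and for Ccnd3 in HFpEF without HFpEF replicate 3 and in control 9w without control 9w replicate 2. Of the 11 G1 cyclins and kinases, 1 was called in HFpEF (Ccnd2), 3 in control 9w against control 5w, all lower (Ccnd2, Cks1b and Cks2), 1 in untreated against control 9w (Cdc25b, lower), 1 in the difference of disease effects (Ccnd2) and 1 with EMPA + PFD (Ccnd1). Of all tested genes 8.69%, 14.7%, 0.912%, 12% and 3.82% were called in these comparisons.

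CDK inhibitors hold the cycle back, p21 (Cdkn1a) as a target of p53 among others. Cdkn1a stood at 30.9, 56.6 and 50.9 CPM in control 5w, 101, 64.4 and 138 in HFpEF, 91.5, 99.9 and 74.0 in control 9w, 77.8, 71.9 and 97.9 in untreated, 131 and 138 in EMPA, 206 and 94.3 in PFD and 70.4, 119 and 68.2 in EMPA + PFD. All HFpEF and control 9w libraries were above all control 5w libraries, and PFD replicate 1, high for mitosis genes, was the highest for Cdkn1a as well. Cdkn1a rose in HFpEF, with a change of 1.13 (SE 0.33, adjusted p = 0.0273) in 3 of 3 libraries, and was at 0.94 (SE 0.33, adjusted p = 0.0385) in control 9w, under the 2-fold threshold and with an adjusted p over 0.05 without control 5w replicate 1 or 3 or control 9w replicate 1 or 2 (changes of 0.73 to 1.01). The call in HFpEF was lost without control 5w replicate 1 (adjusted p = 0.0942) or 3 (adjusted p = 0.0567) and without HFpEF replicate 1 (adjusted p = 0.0543) or 3 (adjusted p = 0.0986), at changes of 0.84 to 1.21. It was also lost with only the libraries of the 2 groups and without the libraries at 0 counts of Eif2s3y, where the change was 0.54 (adjusted p = 0.323). In control 9w the 2-fold threshold was passed without control 5w replicate 2 (log2 fold change 1.11) or control 9w replicate 3 (1.05).

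The change of Cdkn1b, p27, was 0.02 in HFpEF and 0.12 in control 9w against control 5w. The former turned negative without control 5w replicate 3 or HFpEF replicate 2. Cdkn1c, p57, had changes of 0.39 and 0.66, and the libraries of the 3 groups overlapped for both genes (adjusted p of 0.313 or more). With single libraries left out Cdkn1c ran from 0.14 to 0.64 in HFpEF and from 0.16 to 0.99 in control 9w. The lowest values were those without HFpEF replicate 2 and without control 9w replicate 3. Of the 10 tested CDK inhibitors, pocket proteins and CDK1-inhibiting kinases, Cdkn1a was the 1 called in HFpEF, beside 8.69% of all tested genes. In the difference of disease effects 3 were called, beside 12% of all, led by Wee1, the kinase that restrains CDK1, at −1.51 (SE 0.37, adjusted p = 0.0124), called under each single omission and lost without both control 5w replicates 2 and 3 (change −1.53, adjusted p = 0.0536). In the other comparisons 0 were called by edgeR. Wee1 stood at 35.0, 37.2 and 35.3 CPM in control 5w, 61.0, 41.9 and 51.8 in HFpEF, 74.4, 64.6 and 67.4 in control 9w and 33.7, 36.6 and 34.0 in untreated, higher in all HFpEF than in all control 5w libraries and lower in all untreated than in all control 9w libraries. Those at an unadjusted p under 0.05, called by DESeq2 and called by limma voom were 4, 0 and 3 in control 9w against control 5w, 2, 0 and 2 in untreated against control 9w, 4, 0 and 0 in untreated against HFpEF, 3, 0 and 1 with EMPA + PFD, 1, 0 and 0 with EMPA, 2, 0 and 0 with PFD and 3, 0 and 0 in the interaction.

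Of the 10 tested E2F and MuvB factors, none was called in any comparison by edgeR. Those at an unadjusted p under 0.05, called by DESeq2 and called by limma voom were 4, 1 and 1 in HFpEF against control 5w, 4, 0 and 1 in control 9w against control 5w, 2, 1 and 1 in the difference of disease effects and 4, 1 and 2 with EMPA + PFD. In the other comparisons there were 1 (untreated against control 9w), 2 (untreated against HFpEF) and 0 (EMPA, PFD and interaction) at an unadjusted p under 0.05, and 0 by both other tools. The median change of this list was −0.12 in HFpEF and −0.04 in control 9w. The 40 tested genes of the wider replication machinery had medians of −0.11 in HFpEF, where 0 were called by edgeR (11 at an unadjusted p under 0.05, 1 by DESeq2 and 0 by limma voom), and −0.13 in control 9w, where 5 were called, 4 lower (Asf1b, Clspn, Gins1 and Chaf1b) and 1 higher (Gins2), beside 14.7% of all tested genes. Asf1b, a chaperone that hands histones to new DNA, stood at 2.73, 4.19 and 3.50 CPM in control 5w and 1.02, 0.738 and 0.698 in control 9w and fell with a change of −2.08 (SE 0.31, adjusted p = 0.000427) in 3 of 3 libraries, a call kept under each single omission. In untreated against control 9w, 1 gene of this list was called beside 0.912% of all, Uhrf1, which maintains DNA methylation at replication forks, at 14.2, 15.1 and 10.7 CPM in control 9w and 2.22, 4.95 and 3.79 in untreated, with a change of −1.85 (SE 0.39, adjusted p = 0.0305) in 3 of 3 libraries. Cdc25b, the phosphatase that activates CDK1, of the G1 list, stood at 74.0, 83.8 and 63.4 CPM in control 9w and 29.6, 26.1 and 28.9 in untreated, with a change of −1.39 (SE 0.30, adjusted p = 0.0311) in 3 of 3 libraries. Both calls were lost without control 9w replicate 1 or 2 or untreated replicate 1 or 3, with an adjusted p from 0.0980 to 0.145 and changes of −1.87 to −1.60 for Uhrf1 and from 0.0980 to 0.130 and changes of −1.42 to −1.28 for Cdc25b. They were lost too without both control 5w replicates 2 and 3, and that of Uhrf1 with only the libraries of the 2 groups. In all, each of these 2 calls was lost in 6 of the 29 settings tried. In the difference of disease effects 3 replication genes were called, higher, beside 12% of all genes in either direction, led by Clspn, the claspin of the replication checkpoint, at 1.79 (SE 0.59, adjusted p = 0.0437), with 2.83, 4.19 and 4.06 CPM in control 5w, 2.87, 1.83 and 2.23 in HFpEF, 1.02, 0.861 and 1.20 in control 9w and 2.11, 2.84 and 1.79 in untreated. Its call was kept without control 5w replicate 1, HFpEF replicate 1, either EMPA library or any EMPA + PFD library and lost without any of the other 12, with an adjusted p from 0.0532 to 0.0991 and differences of 1.58 to 1.93. It was lost as well without a filter, by upper-quartile scaling and without both control 5w replicates 2 and 3, in all in 16 of the 28 settings tried.

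The wider mitotic machinery had medians of −0.76 in HFpEF, −0.89 in control 9w against control 5w, −0.57 in untreated against control 9w, −0.65 in untreated against HFpEF, −0.53 with EMPA + PFD and 0.97 with PFD. Summed over this list, PFD replicate 1 stood at 380 CPM and replicate 2 at 225, beside 191, 250 and 229 in untreated. Replicate 2 thus lay inside the range of untreated. Of its 30 tested genes, 3 fell in HFpEF (Cep55, Espl1 and Kif15), beside 8.69% of all tested genes called, and 8 in control 9w against control 5w, beside 14.7%. Cep55, which works at the abscission site, stood at 2.54, 8.77 and 8.36 CPM in control 5w and 2.87, 1.19 and 2.59 in HFpEF, where replicates 1 and 3 were above control 5w replicate 1, and its change was −1.56 (SE 0.52, adjusted p = 0.0465). Ckap2, a spindle protein, stood at 2.83, 17.7 and 17.5 CPM in control 5w and 3.61, 2.83 and 5.18 in control 9w, where no library was below control 5w replicate 1, and its change was −1.70 (SE 0.58, adjusted p = 0.0332). Both calls were lost without control 5w replicate 2 or 3, with adjusted p-values of 0.134 and 0.130 and changes of −1.29 and −1.35 for Cep55, and with 0.117 and 0.114 and changes of −1.39 and −1.40 for Ckap2. The call of Cep55 was kept only without control 5w replicate 1, untreated replicate 1 or 2, either PFD library or EMPA + PFD replicate 2, with an adjusted p from 0.0509 to 0.144 under its 13 losses, highest without HFpEF replicate 2, and that of Ckap2 was also lost without control 9w replicate 1 (adjusted p = 0.0940) or 2 (adjusted p = 0.119). With only the libraries of the 2 groups both were lost, and that of Cep55 also without a filter or without the libraries at 0 counts of Eif2s3y (change −2.39). In all, the call of Cep55 was lost in 18 of the 29 settings tried. Without both control 5w replicates 2 and 3 the changes were −0.20 for Cep55 and 0.45 for Ckap2, which is no test, as the 2 were chosen for high mitosis genes.

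Marker genes of the cell types of the heart were counted in the same comparisons. In brackets after a count of 0 by edgeR are the number at an unadjusted p under 0.05 and those called by DESeq2 and by limma voom. Of all tested genes 14.7% were called in control 9w against control 5w and 8.69% in HFpEF against control 5w. In control 9w against control 5w, where 13 cell cycle genes fell, 7 of 9 fibroblast and 7 of 12 macrophage markers fell and 8 of 10 endothelial markers rose (Vwf the most abundant of these). Summed fibroblast markers stood at 5201 CPM in control 5w replicate 1, beside 46899 and 38119 in replicates 2 and 3 and 4974, 3581 and 5199 in control 9w. In this comparison 2 of 10 lymphocyte markers (Klrd1 and Cd2) also rose and 1 of 10 ventricular markers (Actc1) fell. In HFpEF against control 5w, 0 fibroblast markers were called by edgeR (1, 0 and 3) and 0 macrophage markers (1, 0 and 0), while 6 of 10 lymphocyte and 3 of 10 endothelial markers rose and 2 of 10 ventricular cardiomyocyte markers (Actc1 and Ryr2) fell. Summed endothelial markers stood at 2379, 1870.1 and 2167 CPM in control 5w, 2156, 4558 and 3819.6 in HFpEF, 5046, 5373 and 4336 in control 9w, 3828, 4286 and 4212 in untreated, 3952 and 3028 in EMPA, 3341 and 3429 in PFD and 2758, 2542 and 2593 in EMPA + PFD. Control 9w was wholly above control 5w. Summed lymphocyte markers, led by Klrd1, stood at 18.3, 23.4 and 25.9 CPM in control 5w, 83.8, 64.4 and 69.4 in HFpEF, 55.7, 44.3 and 43.6 in control 9w, 74.4, 62.6 and 34.6 in untreated, 72.6 and 24.0 in EMPA, 19.7 and 53.6 in PFD and 47.4, 21.4 and 37.2 in EMPA + PFD. Control 5w was below all HFpEF libraries, whereas control 5w replicates 2 and 3 were above HFpEF for the summed mitosis genes. Summed ventricular cardiomyocyte markers, led by Myh6, stood at 91450.3, 45565 and 49982 CPM in control 5w, 14666, 22158 and 39353 in HFpEF, 38315, 44551 and 39954 in control 9w, 68948, 18573 and 62489.6 in untreated, 52532 and 43316 in EMPA, 71312 and 73851 in PFD and 83151, 99559 and 78750.0 in EMPA + PFD. They were lower in control 5w replicates 2 and 3 than in replicate 1, the reverse of the mitosis genes.

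Of 8 smooth muscle and pericyte markers, with Pdgfrb the most abundant, 0 were called in HFpEF by edgeR (2, 2 and 1) and 1, Myh11, rose in control 9w against control 5w. In untreated against control 9w 1 lymphocyte marker, Cd3e, rose, and 0 fibroblast (0, 0 and 1) and 0 macrophage markers (0, 0 and 0) were called by edgeR. In the difference of disease effects 4 of 10 endothelial (Esam, Emcn, Egfl7 and Pecam1) and 2 of 10 lymphocyte markers (Klrd1 and Cd2) were called lower and 2 of 10 ventricular cardiomyocyte (Actc1 and Ryr2) and 1 of 8 smooth muscle markers (Rgs5) higher. There 0 fibroblast markers were called by edgeR (1, 0 and 2) and 0 macrophage markers (0, 0 and 1). In untreated against HFpEF 0 macrophage (10, 7 and 11), 0 fibroblast (3, 0 and 7), 0 ventricular (3, 1 and 3) and 0 atrial markers (4, 4 and 0) were called by edgeR. Of 6 atrial markers, led by Nppa, 0 were called in HFpEF by edgeR (1, 1 and 1) and 2, Sln and Bmp10, rose in control 9w against control 5w. In control 9w Sln had 1387, 8 and 6975 counts and Bmp10 277, 8 and 1270, low in replicate 2 for both. With EMPA + PFD against untreated, 1 of 10 endothelial (Egfl7) and 2 of 6 atrial markers (Sln and Myl4) fell, and 1 of 10 ventricular cardiomyocyte markers (Ryr2) rose. Both atrial markers were high in replicate 2 alone of untreated, where Sln had 3, 6378 and 6 counts and Myl4 41, 19668 and 46. Summed atrial markers stood at 174, 15065 and 572 CPM in untreated, which enters the atrial medians of all comparisons with it. There 0 fibroblast markers were called by edgeR (1, 1 and 0), as were 0 macrophage markers (2, 0 and 0) and 0 lymphocyte markers (4, 3 and 1). With EMPA alone no marker of these lists was called by edgeR and 0 by limma voom, with 4 atrial markers at an unadjusted p under 0.05 (1 called by DESeq2) and 2 smooth muscle, 1 fibroblast and 1 ventricular marker at that p. With PFD against untreated, where PFD replicate 1 was high for mitosis genes, 0 fibroblast markers were called by edgeR (0, 0 and 0), and 0 macrophage markers (0, 0 and 0). The medians of the 7 lists, with the number negative in brackets and in the order fibroblast, macrophage, lymphocyte, endothelial, smooth muscle, ventricular and atrial, were −0.32 (5), 0.54 (2), 1.54 (0), 0.73 (0), 0.20 (1), −1.25 (10) and −1.43 (6) in HFpEF, −2.29 (9), −1.43 (12), −0.02 (5), 1.22 (0), −0.11 (5), −0.62 (8) and 3.32 (1) in control 9w against control 5w, 1.19 (0), −0.09 (8), −0.72 (7), −1.05 (10), 0.02 (4), 1.64 (0) and 0.56 (1) in the difference, −0.11 (6), −0.31 (8), −0.19 (7), −0.17 (9), 0.65 (1), 0.09 (2) and −5.09 (5) with EMPA and −0.34 (6), 0.25 (5), 0.06 (3), −0.22 (9), −0.81 (8), 0.05 (5) and 4.46 (2) in the interaction. Their part was not tested. No fibroblast or macrophage marker was at 0 counts in any library. Cd79a and Ttn were not analysed here, and Ms4a1 had too few counts to be tested.

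Some of the 47 genes overlap a neighbour in the GRCr8 assembly, whose reads may be counted with them. Among these are Kif11 (Ide), Nusap1 (Ndufaf1), Aurka (Fam210b), Kif20a (Cdc23), Cdca3 (Usp5), Foxm1 (Tex52), Plk1 (Ern2) and Rrm2 (Cys1). Mcm3 (Cct7-ps4) and Tpx2 (LOC120102102), both called in control 9w, overlap a neighbour too, and these neighbours were not analysed here. In HFpEF against control 5w Ide, Ndufaf1 and Fam210b fell by 1.11, 1.58 and 1.07 on the log2 scale, and in control 9w Ide and Ndufaf1 fell by 1.23 and 1.67. Tex52 and Ern2 were not analysed here. For Cdc23, Cys1 and Usp5 the unscaled counts of HFpEF and control 5w overlapped. Cdc23 had 672, 1053 and 970 counts in control 5w and 1028, 824 and 781 in HFpEF. For Cys1 these were 57, 222 and 200 and 276, 138 and 143, and for Usp5 1124, 867 and 926 and 973, 474 and 635. The values of the 47 without such reads were not analysed here.

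The promoters were searched for short motifs, as many of the mitosis genes were high in the same libraries. Of the 47 genes, 37 had a promoter in the RefSeq table of GRCr8, 11 of S phase and 26 of mitosis, and the 250 bases upstream of the start were searched on both strands. An E2F word (TTTGGCGC, TTTCCCGC, TTTCGCGC or TTTGCCGC) stood in 5 of 11 S phase promoters and 1 of 26 mitosis promoters, beside 1.73% of all 33469 promoters. The CCAAT box, read by NF-Y, stood in 6 of 11 and 19 of 26, beside 34.0% of all. TTTGAA, the core of the cell cycle homology region read by MuvB, stood in 1 of 11 and 11 of 26, beside 16.2%. Both CCAAT and TTTGAA were found in 0 of 11 S phase and 11 of 26 mitosis promoters, beside 5.87% of all. A match describes the letters of the window and does not show binding.

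A stretch of the Tyms promoter is shown for its E2F word, in capitals, 5′ to 3′ on the strand of the gene in GRCr8 (RefSeq): Tyms chr9:120776103-120776130, minus strand. Of the S phase genes Mcm2, Mcm5, Mcm6 and Mcm7 hold E2F words too.
Tyms: aggtgcgggtTTTGGCGCcgactacact

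Stretches of mitosis promoters that hold both CCAAT and TTTGAA are shown for Mki67 and for Kif23, which fell in both HFpEF and control 9w. They lie at Mki67 chr1:199952673-199952792, minus strand and Kif23 chr8:71320648-71320682, minus strand, with capitals for the CCAAT box (on the other strand read as ATTGG) and for TTTGAA (on the other strand read as TTCAAA). In Mki67 a TTTGAA and an ATTGG share bases.
Mki67: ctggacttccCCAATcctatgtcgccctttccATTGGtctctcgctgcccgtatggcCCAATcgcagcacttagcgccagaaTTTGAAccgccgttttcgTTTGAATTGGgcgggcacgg
Kif23: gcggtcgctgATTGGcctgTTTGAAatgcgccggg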

How the data were processed

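RNA of left ventricles was sequenced as 19 libraries in 7 groups, assigned by the sample labels. The deposited values are whole counts per gene symbol, for which the authors trimmed reads with Trim Galore, checked them with FastQC, aligned them to rn6 with HISAT2 and counted them with htseq-count. The overlap mode, the strand setting and the version of the annotation are not given in the sources used here. According to the study, 1 EMPA and 1 PFD sample were left out for corrupted files.

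Counts were scaled by TMM and tested in edgeR 4.0.16 (R 4.3.3) by the quasi-likelihood F test, in 1 model of all libraries, over the genes kept by filterByExpr with a minimum of 10 counts. P-values were adjusted by Benjamini-Hochberg over all 12388 tested genes of a comparison. Called genes had an adjusted p under 0.05 and a log2 fold change of 1 or more in size. The SE is the absolute log2 fold change over the square root of F. The labels call the libraries of a group biological replicates. The procedure was tested on simulated data.

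Followed in every library were Pcna, Mcm2, Mcm3, Mcm5, Mcm6, Rrm2, Tyms, Ccne1 and E2f1 of S phase and Mki67, Top2a, Cdk1, Ccnb1, Aurkb, Plk1, Foxm1, Racgap1 and Kif23 of mitosis. Named besides were, in each comparison, every gene called where 10 or fewer were, or else the 5 with the largest absolute log2 fold change in each list, the D cyclins and the inhibitors Cdkn1a, Cdkn1b and Cdkn1c, and the called gene of each pathway list with the largest absolute log2 fold change. Genes named outside this rule were chosen after their values were seen. The members and the lists were chosen with earlier results of these data known. Of the marker lists planned, 1 is not reported here. The alternatives were RLE and upper-quartile scaling, no filter, at least 10 counts in every library, DESeq2 1.42.0, voom with quality weights in limma 3.58.1, the libraries of the compared groups only, the adjusted p alone, a replicate block, the omission of each library, and the omission of the libraries at 0 counts of Eif2s3y. Overlapping genes and promoters came from RefSeq tables of GRCr8, whose coordinates are not those of the counts.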

Additional observations from a re-analysis of the deposited data

Results flagged for a closer look

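The disease effect at week 9 (untreated against control 9w) differed from that at week 5 (HFpEF against control 5w) by a test of the difference itself in edgeR for Ccne2, the 1 of the 47 genes that passed the adjusted p, and for other genes, of which the called one with the largest difference in each pathway list follows. For Ccne2 the difference was −0.96 on the log2 scale (adjusted p = 0.00206), positive in 3 of 3 HFpEF and negative in 3 of 3 untreated libraries. For Ccnd2 it was 3.07 on the log2 scale (adjusted p = 0.00656), with 3 of 3 HFpEF libraries below control 5w and 2 of 3 untreated libraries above all control 9w libraries. The kinase gene Wee1 had a difference of −1.51 on the log2 scale (adjusted p = 0.0124), higher in 3 of 3 HFpEF and lower in 3 of 3 untreated libraries than in the control of the week, and its call was lost without both control 5w replicates 2 and 3, at −1.53. Clspn had a difference of 1.79 on the log2 scale (adjusted p = 0.0437), and in 12 of the 19 single omissions its adjusted p was above the threshold, at differences of 1.58 to 1.93. All untreated libraries and 2 of 3 HFpEF libraries had 0 counts of Eif2s3y, and the part of this in the differences was not tested.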

How the results depend on the processing

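The number of the 47 genes called moved most from the reported one in the settings that follow. In HFpEF against control 5w, where 2 were called, the number was 1 with upper-quartile scaling, 1 without a filter, 1 with the libraries of the 2 groups only, 4 by the adjusted p alone, 8 by DESeq2, 25 by limma voom, 9 without the libraries at 0 counts of Eif2s3y, 0 without control 5w replicates 2 and 3 together (chosen after seeing the data), and 0 to 11 with single libraries left out. In control 9w against control 5w, where 13 were called, it was 8 with at least 10 counts in every library (which leaves 28 of the 47 tested), 18 by the adjusted p alone, 17 by DESeq2, 32 by voom, 11 with the libraries of the 2 groups only, 16 without the libraries at 0 counts of Eif2s3y, 0 without both control 5w libraries, and 3 to 27 with single libraries left out. From 0, voom moved untreated against control 9w to 3, the difference of disease effects to 4 and untreated against HFpEF to 4, the adjusted p alone moved the first to 1 and the difference to 1, and DESeq2 the interaction to 1. Single omissions gave 0 to 1 for the difference. Signs of log2 fold changes turned as follows. For Top2a with EMPA + PFD the change was −0.043 with upper-quartile scaling and −0.11 by voom. In HFpEF, voom gave Mcm6 −0.065, Cdkn1b −0.0064, Cdkn1c −0.22 and Ccnd1 0.26, and Mcm6 was −0.14 without the libraries at 0 counts of Eif2s3y. Without both control 5w libraries the changes were Rrm2 0.075, Cdk1 0.096, Ccnb1 0.21, Aurkb 0.033, Plk1 0.84, Foxm1 0.54 and Cdkn1b −0.052 in HFpEF, Cdk1 0.098, Aurkb 0.15, Plk1 0.83, Foxm1 0.57, Pcna −0.019, Ccnd1 −0.056 and Ckap2 0.45 in control 9w, and Mki67 −0.58, Top2a −0.50, Cdk1 −1.04, Rrm2 −1.46 and Kif23 −0.77 in the difference of disease effects. With single libraries left out the ranges were Ccnd1 −0.30 to 0.14, Ccnd3 −0.060 to 0.082, Cdkn1b −0.19 to 0.16 and Mcm6 −0.084 to 0.11 in HFpEF, Ccnd3 −0.0064 to 0.053 in control 9w, Cdk1 −0.081 to 0.76, Kif23 −0.071 to 0.46 and Mki67 −0.097 to 0.44 in the difference, Top2a −0.55 to 0.38 with EMPA + PFD, Cdk1 −0.039 to 0.75, Mki67 −0.33 to 0.14 and Top2a −0.12 to 0.35 with EMPA and Ccne2 −0.095 to 0.18 with PFD. A group left with 1 library was assumed to vary like the other groups. With the replicate number as a replicate block, 1 gene was called in HFpEF and 11 in control 9w. The numbers did not pair the samples, as the 52 same-number pairs had correlations from −0.567 to 0.544 (median −0.0813) and 5 of 19 libraries were nearest to one of the same number. The cause of these changes was not tested. Genes at about 1 CPM rest on few counts, and groups of 2 or 3 libraries limit what could be detected.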
